A study of Urocitellus parryii with 44 samples.

Results

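Branched-chain amino acid and propionate breakdown was followed in brown adipose tissue, the heat-producing fat of mammals, through 10 enzyme genes: Mmut, Pcca, Pccb, Bckdha, Bckdhb, Dbt, Ivd, Mccc1, Auh and Hibadh. Members were taken by name, as every array probe whose only annotated gene symbol is one of these, which gave 26 of 38400 probes and 10 of 11786 named genes. The samples were 3 arctic ground squirrels (Urocitellus parryii) active in August, called summer, and 5 in winter torpor, the hibernator's state of deeply lowered metabolism. The labels give no strain, genotype, treatment, age or sex. Their total RNA was labelled with 33P and read on 4 cDNA membranes made for the mouse (MA07, MA08, MA10 and MA11, 9600 probes each), and 3 of the RNAs were split and measured in duplicate, which makes 44 columns. The 8 animals are the replicates, and p-values measure the spread between them. Season and state of activity differ together between the groups and cannot be told apart. The probes are of mouse and the RNA of squirrel, so each symbol names the mouse gene, and all 10 symbols are also gene names in the squirrel's RefSeq annotation.

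Leucine, isoleucine and valine are broken down in mitochondria. After transamination, the branched-chain keto acid dehydrogenase complex (Bckdha and Bckdhb form its decarboxylase, Dbt its acyltransferase core) commits the carbon skeletons to breakdown, and separate arms then handle each acid. Leucine passes through Ivd, Mccc1 and Auh, and valine through Hibadh. Isoleucine and valine yield propionyl-CoA, which propionyl-CoA carboxylase (Pcca and Pccb, a biotin enzyme) turns into methylmalonyl-CoA. Mmut, the cobalamin-dependent methylmalonyl-CoA mutase, makes succinyl-CoA from it, which enters the tricarboxylic acid cycle. Brown fat is known as a tissue that takes up and oxidises branched-chain amino acids when it makes heat.

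Each level below is log2 of spot intensity over the median of its column, with duplicates averaged to 1 value per animal, and each difference is torpor minus summer on that scale from limma, with a standard error (SE). A probe was called when its adjusted p, by Benjamini-Hochberg over the 37848 tested probes, lay under 0.05. Levels are compared only within a probe, since probes differ in length and in match to the squirrel transcript. Exceptions are ratios, marker sums and the ranking of a membrane's probes by signal, which also picks a gene's brightest probe. Over all probes 117 were called, which is 0.309%, with 98 higher in torpor (0.259%) and 19 lower. With the columns aligned by cyclic loess there were 46 higher and 17 lower. The median Spearman correlation of a column with the others of its membrane ran from 0.71, for a column of summer animal 2 on MA08, to 0.906. Between 0.698% and 9.41% of a column's cells were empty, most of all on MA10. No signal over background was given for the spots, and the number of arrays limits the precision.

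Of the 26 member probes 1 was called, against the 0.309% of all probes: Mmut on MA11, higher in torpor. Another 5 had a positive difference and 1 a negative difference at an unadjusted p under 0.05, so that 7 of 26 met this weaker mark, as did 11.6% of all probes. In 4 of 26 every torpid animal lay above every summer animal, as in 4.37% of all probes, and in 0 of 26 every torpid animal lay below, as in 4.13%. These 4 were both bright Mmut probes, the brighter Pccb probe and the brightest Auh probe. The member probes had a median difference of 0.050, with 16 of 26 positive, beside 6.5e-05 with 50% positive over all probes. Without the 3 Mmut probes the median was 0.038, with 14 of 23 positive.

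Mmut was higher in torpor on 2 of its 3 probes and was called on 1 of them, on MA11. Its brightest probe, on MA08, was not called. On MA11 the summer animals stood at 0.030, -0.050 and 0.43, and the torpid animals at 2.80, 2.05, 2.28, 2.62 and 1.96. The groups were far apart, with all 5 torpid animals well above the highest summer animal and a similar spread in both. The difference was 2.20 ± 0.26 (SE; adjusted p = 0.0081 by limma), a 4.61-fold higher signal with a 95% interval of 1.63 to 2.77 on the log2 scale. By p-value this probe ranked 9 among all tested probes and 3 on its membrane.

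The split RNAs gave the same picture before averaging. In linear units, summer animal 1 measured 0.953 and 1.09 times the column median on MA11, and summer animal 2 measured 0.911 and 1.02. Torpid animal 5 measured 3.42 and 4.40. The lowest torpid column was thus above all 5 summer columns, the highest of which was summer animal 3 at 1.35. The spots at the adjacent index positions on MA11 had differences of 0.69 and -0.0020, and neither was called.

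A separate Mmut clone on MA08 had values of 0.95, 0.42 and 1.48 in summer and 2.79, 2.25, 2.05, 1.97 and 1.84 in torpor. The groups again did not overlap, but the gap between them was narrower, since summer animal 3 stood close to torpid animal 5. The difference was 1.23 ± 0.29 (SE), with a 95% interval of 0.60 to 1.86, and the adjusted p of 0.12 (limma) missed the threshold. On MA10 the Mmut probe lay at signal percentile 2.68, among the dimmest of its membrane, and had values in 2 summer animals (-3.20 and -2.85) and 3 torpid animals (-2.50, -3.49 and -4.38). These overlapped, and the interval of the difference, -1.67 to 0.80, spanned 0. Whichever animal was left out, the MA11 probe was called, with differences from 2.09 to 2.35 and adjusted p from 0.0085 to 0.039 by limma. The MA08 probe was called in none of these 8 fits (0.96 to 1.49).

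**Figure D1:**
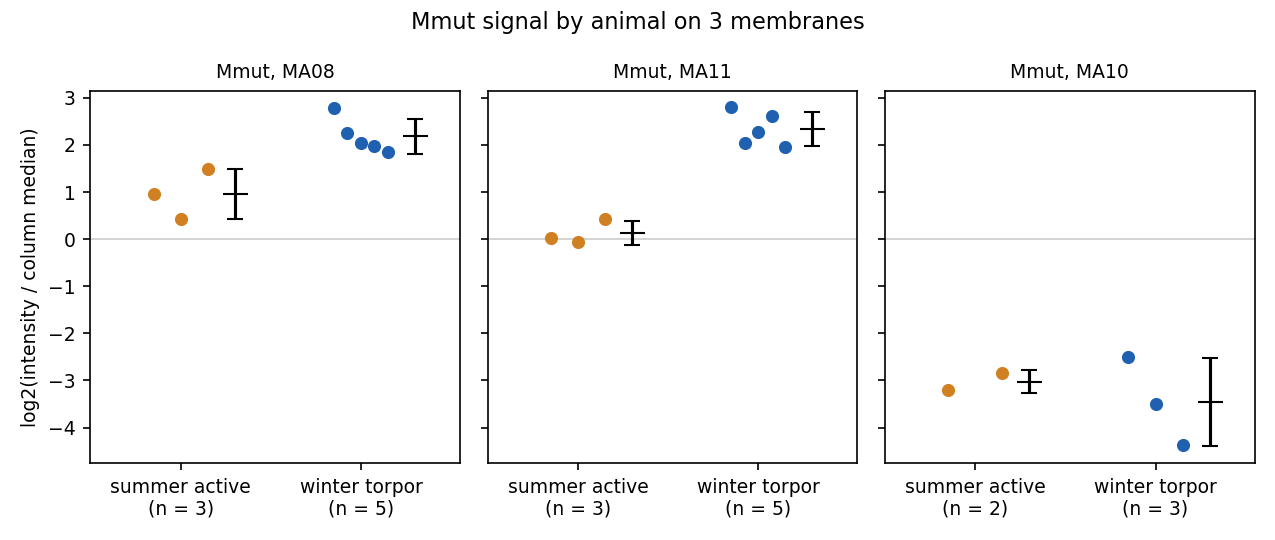
Mmut signal by animal on MA08, MA11 and MA10, as log2 of intensity over the column median; points are animals and bars are mean ± SD. On MA11 the torpid animals lie between 1.96 and 2.80 and the summer animals between -0.050 and 0.43, on MA08 the groups are also apart, and on MA10 the few values overlap.

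Propionyl-CoA carboxylase, the step before Mmut, gave no call. The brighter Pccb probe (the beta subunit) on MA11 had summer values of 1.60, 2.26 and 1.46 and torpid values of 2.54, 2.50, 2.30, 2.62 and 3.20. All torpid animals were above the summer animals, though torpid animal 3 exceeded summer animal 2 only narrowly. The difference was 0.86 ± 0.28 (SE; adjusted p = 0.25 by limma), and it depended on the scaling, with 0.55 after quantile normalization and 0.37 after cyclic loess. The other Pccb probe of MA11, at signal percentile 57.1, ran from -0.0063 to 0.70 in summer and from -0.62 to 0.58 in torpor, with a difference of -0.15 and an interval of -0.81 to 0.52. Pcca, the biotin-carrying alpha subunit, had 1 probe, on MA07. Its summer values were 0.96, -0.30 and -0.020 and its torpid values 0.36, 0.12, -0.53, -0.031 and -0.48, which overlapped, and the interval of its difference was -1.02 to 0.37.

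The ratio of Mmut to other members of the same membrane does not change when a whole column is multiplied by a constant. Scaling that depends on intensity, such as quantile normalization or cyclic loess, can change it, and the ratios were not recomputed after these. The Mmut ratio was computed per animal for 10 pairs, after the Mmut values had been seen. It was compared by a two-sided exact permutation test whose smallest possible p is 0.036. In all 10 pairs the mean log2 ratio was higher in torpor, by 1.19 (Mmut over Dbt on MA08) to 2.72 (Mmut over the dimmer Auh probe on MA11). In 6 pairs the groups did not overlap, at the smallest p, or 0.060 adjusted over the 10 pairs. The pairs share the Mmut values of MA08 and MA11, whose groups were already known to be apart. The ratios and their p-values are therefore a description and add no separate support for the Mmut difference. Against the brighter Pccb probe the ratio was -1.64 ± 0.64 (SD, n = 3) in summer and -0.29 ± 0.59 (SD, n = 5) in torpor, with overlapping groups (exact permutation p = 0.071, adjusted 0.089). Against the other Pccb probe it was higher in torpor by 2.35 with no overlap, at the smallest possible p (adjusted 0.060). The contrast between the Pccb probes was not tested.

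Transcripts of the branched-chain keto acid dehydrogenase's own subunits were not called on any membrane. All 8 probes together had a median difference of -0.089, with 4 positive and 4 negative. Dbt, the lipoate-bearing core, was measured on all 4 membranes. Its brightest probe, on MA07, had 0.93, 0.19 and 1.61 in summer and 0.89, 0.39, 0.65, 0.67 and 0.86 in torpor, so that the torpid animals lay within the summer range. Its difference there was -0.22, that of the MA10 probe was 0.19, and 1 clone spotted on both MA08 and MA11 gave 0.038 and -0.23. The 95% intervals reached no lower than -1.04 (MA11) and no higher than 1.02 (MA10).

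Bckdha, the alpha subunit of the decarboxylase, gave 0.12, -0.29 and 0.48 on MA07, MA08 and MA10. On MA07 its values were -0.064, 0.43 and 1.03 in summer and 0.78, 0.35, 0.36, 0.79 and 0.63 in torpor, with the summer animals on both sides of the torpid ones. The MA10 value depended on summer animal 3, which stood at -2.22 beside duplicate means of -0.79 and -0.86 in the other summer animals. Without that animal the difference was 0.017. It also depended on the duplicates, which stood at -1.77 and 0.19 in summer animal 1 and at -1.37 and -0.36 in summer animal 2. With first duplicates alone the difference was 1.055, and with second duplicates alone -0.090. Bckdhb, the beta subunit, had 1 probe, at signal percentile 13.7 on MA10. Its values were -1.30 and -1.99 in 2 summer animals and -2.41, -1.98, -3.31 and -3.30 in 4 torpid animals. As averaged, summer animal 2 lay just under torpid animal 3, so the groups overlapped. The duplicates of summer animal 2 were far apart, at -0.70 and -3.275, as were those of torpid animal 5, at -2.04 and -4.55. Summer animal 1 had a value in only 1 of its duplicates. The difference of -1.11 ± 0.51 (SE) had an adjusted p of 0.43 by limma. With values under the 10th percentile of a column set to that percentile, it was -0.34.

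Dld, the dihydrolipoamide dehydrogenase that this complex shares with the pyruvate and 2-oxoglutarate dehydrogenases, had called probes where those subunits had none. It rose by 3.11 and 3.33 on MA08 and MA11 (adjusted p = 0.021 and 0.015 by limma), where the same clone was spotted on both membranes. The 2.90 of its MA07 probe, a different clone, missed the threshold (adjusted p = 0.059 by limma). In all 3 probes every torpid animal was above the summer animals. Dbt on the same membranes was at 0.038, -0.23 and -0.22. The mean log2 ratio of Dld to Dbt or Bckdha was higher in torpor by 2.79 to 3.56 in the 5 pairs formed. In each pair the groups did not overlap, at the smallest possible p of 0.036 (exact permutation test), also 0.036 adjusted over the 5 pairs. These pairs were chosen after the values had been seen and share the Dld values. The ratios and their p-values are therefore a description and add no separate support for the Dld difference.

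**Figure D2:**
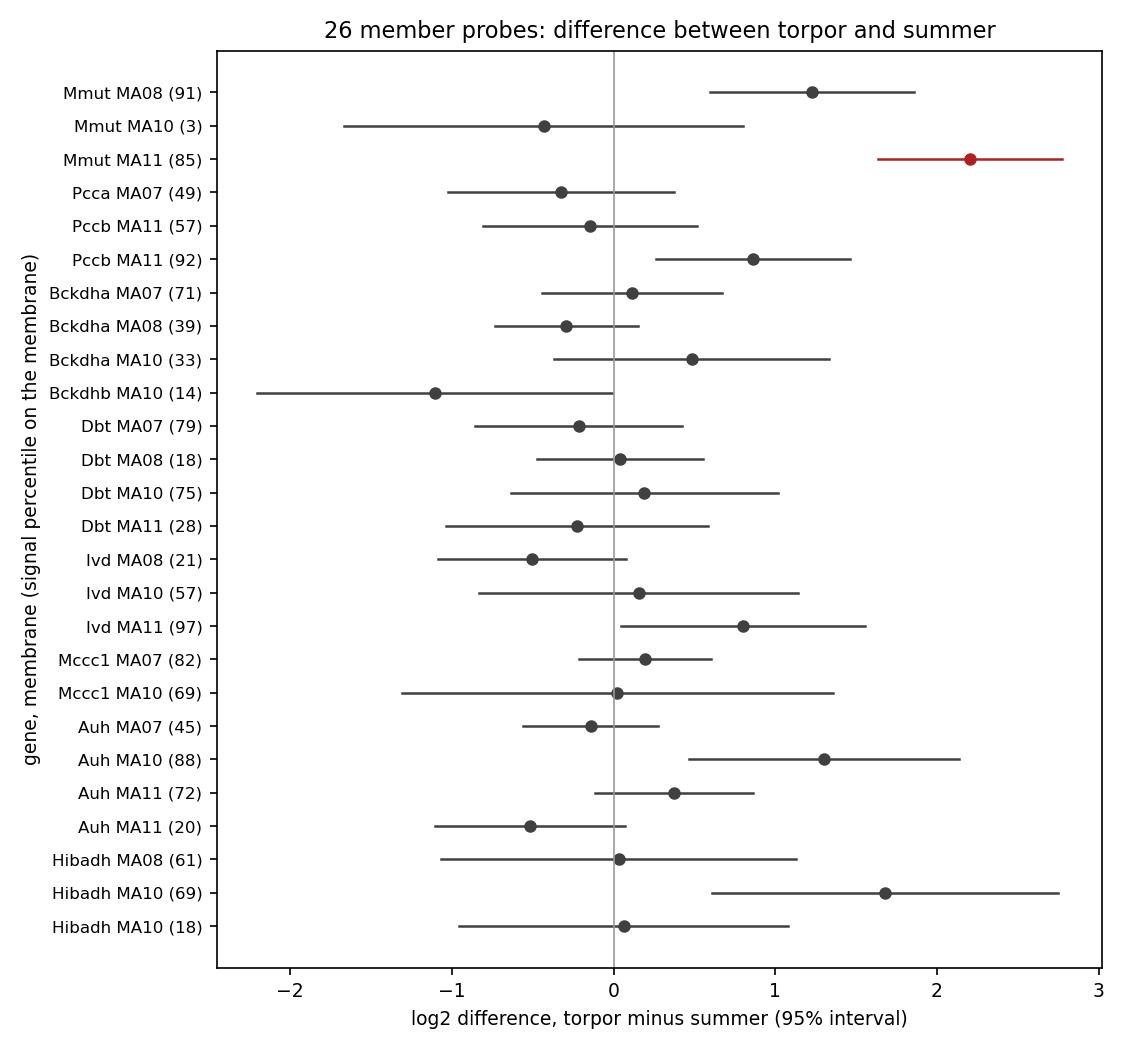
Difference between torpor and summer for the 26 member probes on the log2 scale; points are limma estimates, lines 95% intervals, and the number after the membrane is the probe's signal percentile. Mmut on MA11, in red, is the called probe, at 2.20, and the 8 probes of Bckdha, Bckdhb and Dbt lie on both sides of 0.

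The leucine arm gave positive values for its brightest probes without a call. Ivd, isovaleryl-CoA dehydrogenase, was very bright on MA11 (signal percentile 97.3), with 3.53, 4.64 and 2.90 in summer and 4.49, 4.69, 4.09, 4.39 and 4.79 in torpor. Summer animal 2 lay among the torpid animals, and the difference was 0.80 ± 0.35 (SE; adjusted p = 0.40 by limma). It was 1.28 without summer animal 2 and 0.41 without summer animal 3. The dimmer Ivd probes gave 0.15 on MA10 and -0.51 on MA08, both with intervals that span 0. Mccc1, the biotin-carrying subunit of methylcrotonyl-CoA carboxylase, gave 0.20 on MA07, where its summer values were 0.80, 1.09 and 0.48 and its torpid values 0.88, 1.11, 1.08, 0.86 and 0.99. The groups overlapped, and the interval of -0.21 to 0.61 is the narrowest of the member probes. On MA10 its summer animals ran from -0.83 to 2.60, and the difference of 0.024 had an interval of -1.31 to 1.36.

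Auh, an enoyl-CoA hydratase of leucine breakdown that also binds AU-rich RNA, had 4 probes that differed in sign. On MA10 its summer values were 2.13, 0.71 and 1.36 and its torpid values 2.54, 2.92, 2.82, 2.82 and 2.39. Every torpid animal was above the summer animals, and the difference was 1.30 ± 0.39 (SE), with an adjusted p of 0.20 by limma. The same clone on MA11 had 0.83, 0.38 and 0.25 in summer and 1.06, 0.75, 0.84, 0.76 and 0.87 in torpor, a difference of 0.37 ± 0.23 (SE) with summer animal 1 inside the torpid range. These 2 estimates are 0.93 apart. Over the 305 clones measured once on each of MA10 and MA11, the median distance was 0.44 and the 90th percentile 1.07. The remaining Auh probes gave -0.14 on MA07 and -0.52 on MA11.

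The valine arm was represented by Hibadh, 3-hydroxyisobutyrate dehydrogenase. On MA10 its brighter probe had 0.0068, -0.63 and 0.47 in summer and 2.98, 2.15, 1.27, 1.39 and 0.36 in torpor. Torpid animal 5 fell inside the summer range and torpid animal 1 was the highest, so the torpid animals spread widely. The difference of 1.68 ± 0.51 (SE) was the second largest of the members and missed the threshold (adjusted p = 0.20 by limma). The other Hibadh probes gave 0.031 on MA08 and 0.062 on MA10, with intervals of -1.07 to 1.13 and -0.95 to 1.08.

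**Figure D3:**
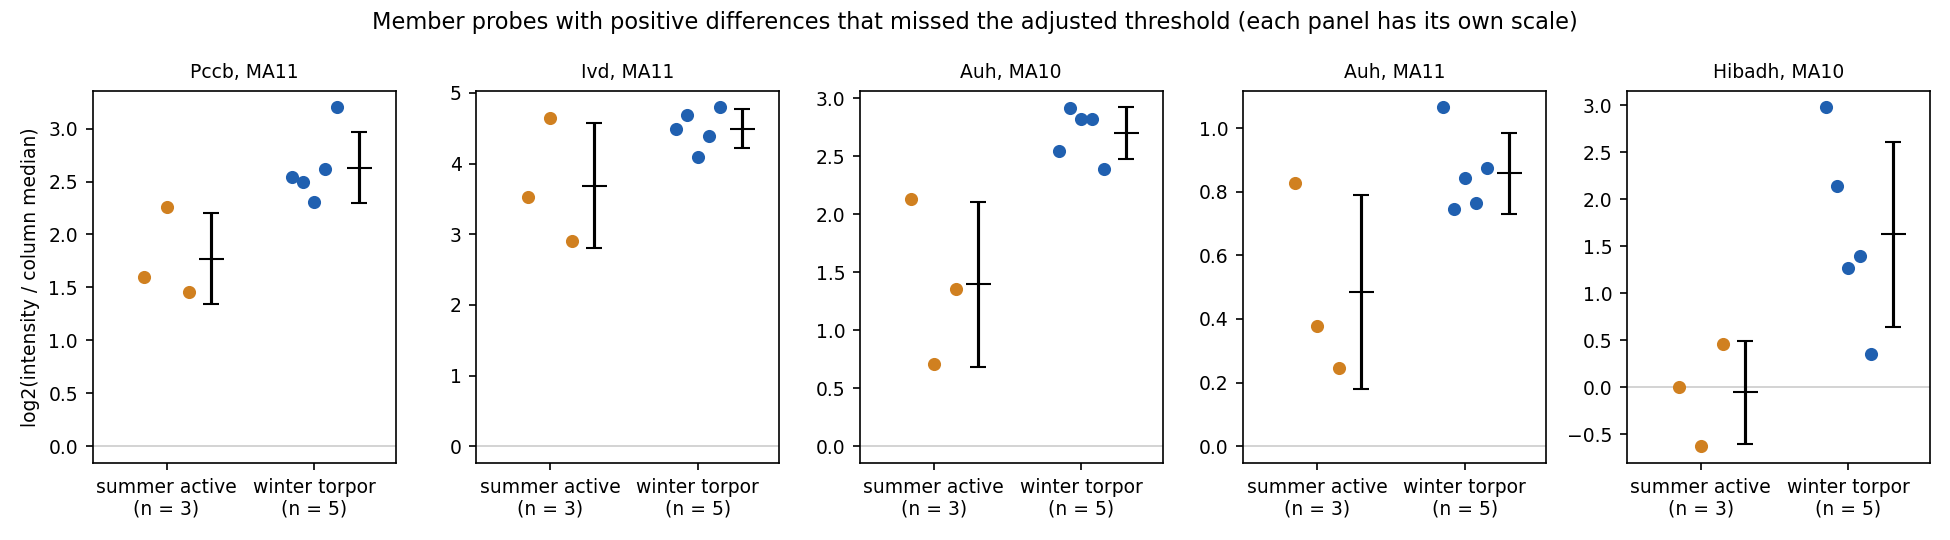
Level by animal for the brighter Pccb probe (MA11), the brightest Ivd probe (MA11), the Auh clone measured on MA10 and MA11, and the brighter Hibadh probe (MA10), as log2 of intensity over the column median; points are animals and bars are mean ± SD. The groups are apart for Pccb and for Auh on MA10 and overlap in the other panels, and no panel passed the adjusted threshold.

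The members' values were also set beside signal strength. The 6 member probes above signal percentile 80 were of Mmut (2 probes), Pccb, Ivd, Auh and Mccc1, with differences from 0.20 to 2.20 and a median of 1.05. The other 20 had a median of -0.059, with 10 positive, among them the brighter Hibadh probe of MA10 at percentile 69.2. Over all tested probes the same division gave medians of 0.19 (62.8% positive of 7676) and -0.028 (46.8% of 30172), and 78 of the 98 probes called higher were above that percentile. The percentile uses the mean over all animals, torpid ones included, so a higher torpid signal raises it, and the part of signal strength in the members' values was not tested.

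Other genes of the pathway, from a list by role, held 38 measured genes on 75 tested probes. Of these 75 probes, limma called 2 higher, both of Dld, and 0 lower. By unadjusted p under 0.05, 12 probes were higher and 4 were lower, where 11.6% of all probes met this mark (2420 higher and 1959 lower). By its brightest probe, 24 genes had a positive and 14 a negative value, with a median of 0.15. The share of positive values was 50% over all probes, 62.8% above signal percentile 80 and 46.8% at or under it. The brightest probes of the list lay on both sides of that percentile, so none of these shares is a matched comparison. Without summer animal 1, 5 probes were called (the 3 of Dld, and Etfa and Etfdh on MA10). Without torpid animal 2 none was called, and without summer animal 2 or torpid animal 1, 3 or 4 Dld on MA11 was the only one.

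No probe of the uptake genes or of the first steps was called apart from Dld. Bcat2, the mitochondrial branched-chain aminotransferase, gave -0.19 ± 0.20 (SE), and Bckdk, the kinase that inactivates the dehydrogenase complex, -0.39 ± 0.33. The other Bckdk probes gave 0.33 on MA07 and -0.69 on MA10. Bcat1, the cytosolic aminotransferase, gave 0.017 by its brightest probe, while another of its MA07 probes, chosen after its value was seen, stood at 1.16 (adjusted p = 0.20 by limma). The 5 uptake genes had a median of 0.034 by their brightest probes. Slc25a44, the mitochondrial carrier of branched-chain amino acids known from brown fat, gave -0.24 ± 0.25, and its 3 probes ran from -0.68 to -0.12. Slc43a2 and Slc6a15, transporters of neutral amino acids, stood at 0.29 and -0.30.

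Further down the arms, Oxct1, which activates acetoacetate, gave 0.60 ± 0.27 (SE), Acat1, the mitochondrial thiolase, 0.37 ± 0.20, and Mccc2, the partner of Mccc1, -0.0048. Another Acat1 probe, on MA11, stood at 1.24 (adjusted p = 0.14 by limma). The 5 Oxct1 probes ran from -0.32 to 0.60, with 4 positive, and the other Mccc2 probe gave 0.46. The isoleucine arm had positive values on 6 of 9 probes, with a median of 0.21. By the brightest probe all 5 of its measured genes were positive, while other probes of Echs1, Hadha and Hsd17b10 gave -0.85, -0.45 and -0.068. Brightest-probe values were 0.50 for Acadsb, the short/branched-chain acyl-CoA dehydrogenase, and 0.42 and 0.31 for Hadhb and Hadha of the trifunctional protein, and no probe was called. In the valine arm Aldh6a1, methylmalonate-semialdehyde dehydrogenase, gave 0.63, Acad8, isobutyryl-CoA dehydrogenase, -0.046, and Ehhadh, a peroxisomal bifunctional enzyme, -1.20 on a dim probe of MA10 with values in 4 of the torpid animals (adjusted p = 0.34 by limma).

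None of the 8 measured cobalamin genes, among them genes that supply the cofactor of Mmut, was called. By their brightest probes 3 were positive and 5 negative, with a median of -0.13. Mmaa, the GTPase that protects and loads the mutase, had 1.95, 2.27 and 1.68 in summer and 1.74, 1.66, 1.26, 1.30 and 0.80 in torpor on MA08. Its difference of -0.61 ± 0.25 (SE; adjusted p = 0.38 by limma) had the opposite sign to that of Mmut on that membrane. Mmadhc, which directs cobalamin to its enzymes, gave 0.52 on MA07 and 0.50 on MA08. Cd320, the receptor for cobalamin on transcobalamin, gave -0.81 by its brightest probe and 0.10 by its other probe. Among the biotin genes, Acacb and Acaca, the acetyl-CoA carboxylases, stood at 0.79 and 0.47, and Btd, which recycles biotin, at -0.30. For the carriers of electrons from the acyl-CoA dehydrogenases the brightest-probe values were 1.57 for Etfdh, 1.50 for Etfa and -0.53 for Etfb. Their other tested probes gave -0.049, -0.41 and -0.92 in the same order. Of these 6 probes 2 were positive and 4 negative, with a median of -0.23, and none of them passed.

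**Figure D4:**
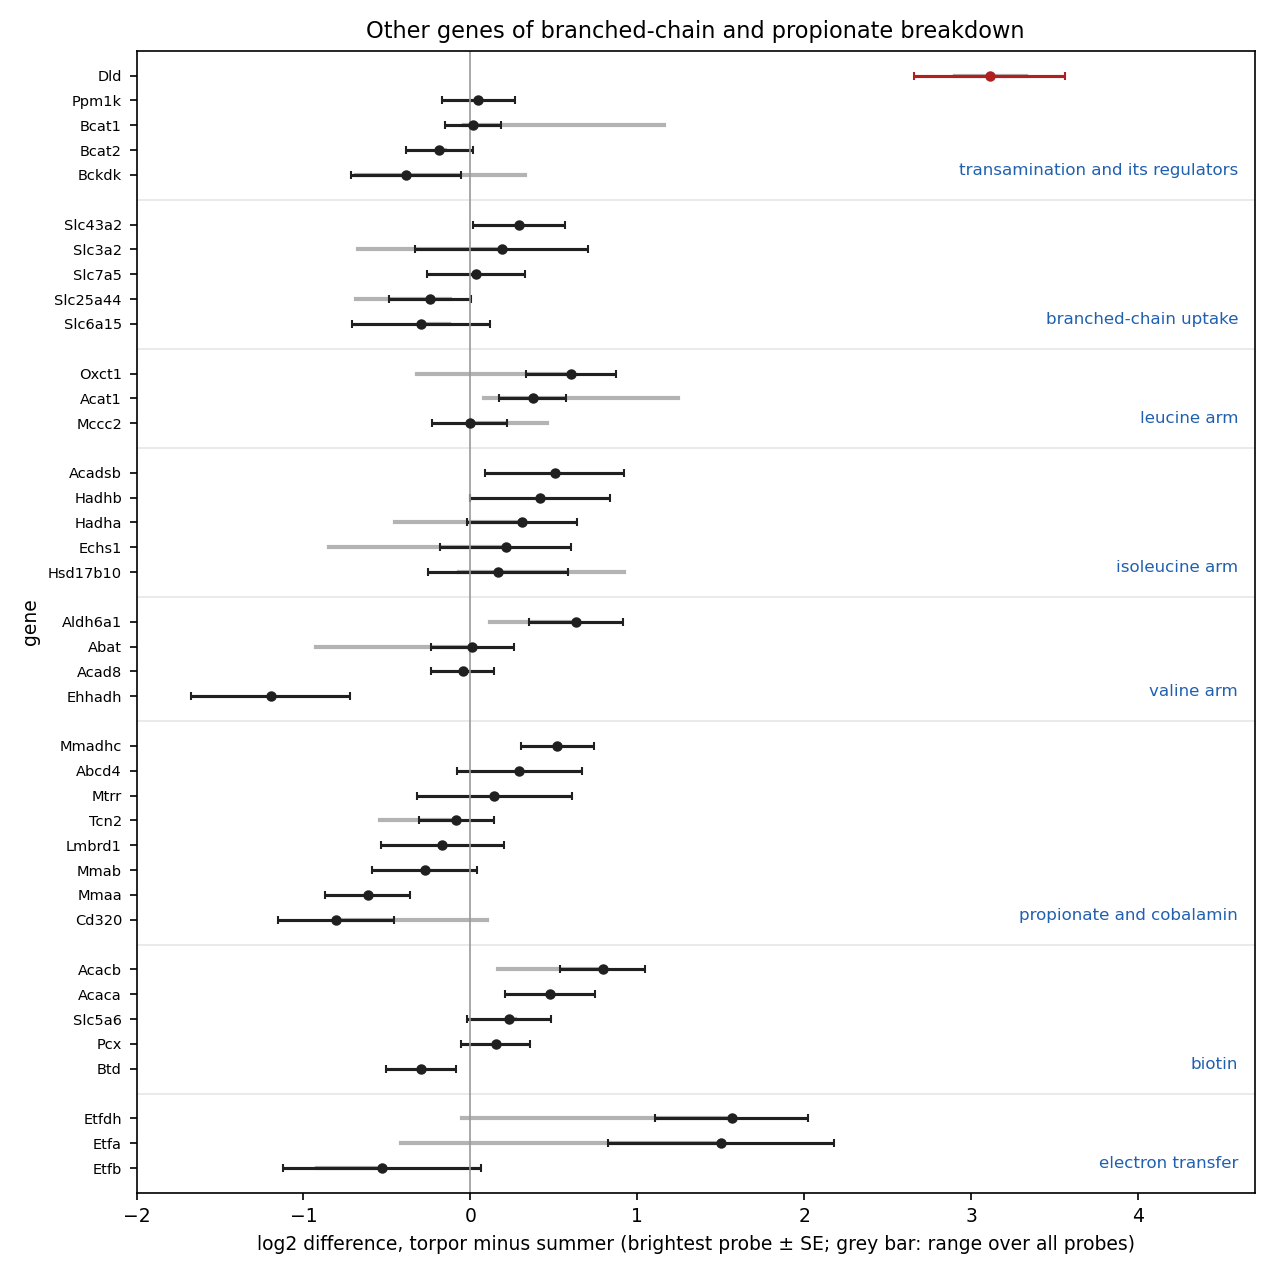
Difference between torpor and summer for 38 other genes of the pathway, grouped by role, on the log2 scale; points are the brightest probe ± SE and grey bars span all probes of a gene. Dld, in red, is the gene with called probes, and the other 37 genes have brightest-probe values from -1.20 to 1.57.

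The product of Mmut, succinyl-CoA, is the substrate of succinyl-CoA ligase. For this ligase Sucla2 was called on 4 of its 6 probes, from 3.96 to 4.36, and 0 of the 7 probes of Suclg1 and Suclg2 were called. The called Sucla2 probes of MA10 and MA11 are the same clone. By the brightest probe, none of the 3 genes was called, and the values were 1.40 for Sucla2, 1.49 for Suclg1 and -0.46 for Suclg2. The remaining Sucla2 probe stood at -0.68. Over the 8 animals, the named probes of MA08 that followed the brightest Mmut probe most closely were of Laptm4a (Pearson r = 0.974), Acot9 (0.972), Slc25a5 (0.970), Adcy3 (0.966) and Kcnab2 (0.964), out of 6523 candidates. For the called MA11 probe, chosen after its value was seen, the closest was Acadm, the medium-chain acyl-CoA dehydrogenase of fatty acid oxidation (r = 0.991, difference 2.28), followed by Txndc17, Triml1, Pgrmc1 and Ppp2r5b (r from 0.972 to 0.957). These coefficients describe 8 animals in 2 groups that share a membrane, and the step between the groups makes up much of them.

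Markers of brown fat and of other cell types were compared in the same fit, because in bulk tissue fewer cells of a type and less RNA per cell cannot be told apart. Of 10 brown adipocyte markers 7 were measured (Cidea, Dio2, Elovl3, Esrrg, Ppara, Ppargc1a and Prdm16), and Ucp1 was not analysed here. Their median difference was -0.31 and 0 of 13 probes were called. By the brightest probe, Esrrg (1.09, every torpid animal above the summer animals) and Prdm16 (0.56) were positive, and the other measured markers were negative. The summed brightest-probe intensity of the 7 ran from 11.2 to 18.1 in summer and from 9.75 to 12.6 in torpor. The 3 measured adipocyte markers (Cd36, Lpl and Pparg) summed to 6.04 to 9.20 and 7.87 to 9.21. Lists for muscle (4 of 9 measured), blood (2 of 3) and endothelium (4 of 4) had medians from -0.38 to -0.15, and those for liver (4 of 6), immune cells (5 of 5) and nerve 0.26, 0.20 and 0.60, with 0 probes called in any of them. Immune markers summed to 8.80 to 16.9 in summer and 14.9 to 21.8 in torpor, those of liver, a tissue rich in Mmut, to 4.83 to 6.30 and 5.75 to 9.45, and those of muscle, another oxidative tissue, to 6.14 to 8.12 and 6.43 to 16.0. Nerve markers (2 of 4 measured) summed to 19.6 to 50.8 and 35.9 to 71.6. Such sums pool different probes and follow the brightest of them most, while probes of a list differed in sign. Lcp1, of the immune list, gave 1.45 on its brightest probe (MA11, signal percentile 94.7) and -0.75 on MA07, and Cd74 gave -0.66. The nerve marker Nefm gave 0.75 at percentile 99.8 and -0.52 on its other probe. The part of cell composition in the Mmut result was not tested.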

How the data were processed

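Brown adipose RNA of 8 animals was measured on 4 membranes. The authors deposited linear spot intensity values, 1 table per membrane. Each column's median is 1 when empty cells (3.45% in all) are ranked lowest, so the columns were already scaled. How the images were read and background treated is not given in the sources used here. Values were taken to log2 with empty cells as missing, duplicates of a split RNA were averaged, and limma 3.58.1 (lmFit and eBayes, two-sided, R 4.3.3) was run membrane by membrane on probes that had a value in 2 or more summer and 2 or more torpid animals. All 26 member probes met this. Benjamini-Hochberg adjustment covered the 37848 tested probes of all membranes. Intervals are 95% intervals of the moderated fit, and the fit was tested on simulated data.

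Symbols were taken from GEO's platform annotation (25070 probes with 1 symbol, 941 with several, 12389 with none). No genome build is named, so no coordinates are given. The members and gene lists were chosen with earlier results of these data known. Named were all member probes and, of the wider list, genes with a called probe and up to 3 genes per role with the smallest p by the brightest probe. Also named were the 5 genes closest to Mmut and the succinyl-CoA ligase genes. A gene with several probes was represented by the one with the highest signal percentile. Alternatives covered scaling, a floor, a filter on dim probes, the variance model, the adjustment, duplicates, a replicate block and each animal left out. The groups share replicate numbers, and the labels do not say that same-numbered animals are paired.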

Additional observations from a re-analysis of the deposited data

Results flagged for a closer look

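Ivd on MA08 had 1 torpid animal apart from the rest of its group. Torpid animal 3 stood at -0.29, while the other 4 lay between -1.14 and -0.96, so that its gap to the nearest was 0.79 of the group's range. It was found among 25 torpid groups examined, and chance marks about 1 in 20 such groups. Without this animal the difference on that probe was -0.66 in place of -0.51.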

How the results depend on the processing

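Mmut on MA11 was called in 9 of 10 settings other than leaving out an animal and in all 8 fits without 1 animal, with differences from 1.996 to 2.35. The exception was the replicate block, with 2.24 (adjusted p = 0.054 by limma), where 0 member probes and 0 member genes were called and the count over all probes was 32. Torpid animals 4 and 5 share their number with no summer animal, so they add nothing to the difference in that setting. The labels do not say whether same-numbered animals of the groups belong together. Deviations of same-numbered animals correlated at 0.020, 0.0073 and 0.0076, and not every animal correlated best with its own number. All combinations ran from -0.052 to 0.052, and whether same-numbered animals shared handling was not tested. The count over all probes was 63 with cyclic loess, 280 with bright complete probes alone, 228 with trend and robust, 176 and 38 with the first or second duplicates, and from 17 to 347 with 1 animal left out. It was 347 without summer animal 1, and 45, 17, 50 and 60 without torpid animals 1, 2, 3 and 4. The wider list had 0 to 5 called probes when 1 animal was left out.

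Some uncalled member probes changed sign, with differences from -0.52 to 0.48 as reported. Quantile normalization gave Hibadh -0.022 on MA08 and -0.12 on MA10, and cyclic loess gave Mccc1 -0.010 and Hibadh -0.072 on MA10. With first duplicates Auh was 0.037 on MA07 and 0.013 on MA11, Bckdha -0.024 on MA07 and Hibadh -0.18 on MA08. With second duplicates Bckdha was -0.090, Mccc1 -0.041, Dbt -0.12 and Hibadh -0.23, all on MA10. Mmut on MA10 was 0.028 with the block. With 1 animal left out, the ranges that crossed 0 were, on MA07, -0.15 to 0.40 for Bckdha, -0.58 to 0.048 for Pcca and -0.58 to 0.13 for Dbt. On MA08 they were -0.19 to 0.22 for Dbt and -0.56 to 0.63 for Hibadh. On MA10 they were -0.33 to 0.45 for Ivd, -0.87 to 0.85 for Mccc1, -0.026 to 0.58 for Dbt, -0.12 to 0.26 for Hibadh and -0.91 to 0.028 for Mmut, and on MA11 -0.30 to 0.051 for Pccb. The cause was not tested. As the median over a gene's probes, Pccb was 0.36, Auh 0.12 and Hibadh 0.062. The dim MA10 probes limit what can be said of Bckdhb.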
